A study of Mus musculus with 9 samples.

Results

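The cytosolic ribosomal protein genes encode the protein parts of the large (60S) and small (40S) subunits of the ribosome that translates nuclear mRNAs. They were taken by symbol: table entries with 1 symbol that begins with Rpl or Rps followed by a number, together with Rpsa, Rplp0, Rplp1 and Rplp2, without the Rps6k kinases and without Rpl39l. The rule found 84 members among 23285 genes, 50 of the large subunit and 33 of the small subunit. The remaining member, Rps19bp1, encodes a protein that binds RPS19 and is not a ribosomal subunit. RNA of erythroid cells sorted from bone marrow of mice on a C57BL/6 background was sequenced in 9 libraries, 3 for each of 3 groups. KOa cells carried Trim28 flox/flox with Mx1Cre and were sorted as CD71hi TER119+, and the labels describe them as modestly deleted, with 5 to 8% of the Trim28 gene undeleted. KOb cells carried the same alleles, were sorted as CD71hi TER119-, and had 1 to 4% of the gene undeleted. FFa cells, the control, carried Trim28 flox/flox without Cre and were sorted as CD71hi TER119+. Mutant mice were analysed 2 weeks after 5 injections of poly(I:C), an interferon inducer that switches on Mx1Cre in many cell types of the animal. Whether FFa mice were injected is not given in the labels. Both alleles were floxed in every group, and since only the mutant groups carry Mx1Cre, effects of Cre and of the deletion cannot be told apart.

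Cells make most ribosomal proteins in near-equal numbers, because a ribosome holds a single copy of nearly every one, the stalk proteins Rplp1 and Rplp2 apart. Their mRNAs are known for a run of pyrimidines at the 5' end, the terminal oligopyrimidine tract, which places their translation under mTORC1 and the RNA-binding protein LARP1. Erythroblasts depend on a high output of ribosomes for hemoglobin, and in humans loss of one copy of any of several ribosomal protein genes causes Diamond-Blackfan anemia, in which red cell precursors are lacking. TRIM28 (KAP1) represses transcription at sites bound by KRAB zinc finger proteins.

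The authors' deposited table held 1 FPKM value per gene and group, with the libraries already combined, so no spread between libraries could be printed. The targeted gene followed its labels: Trim28 stood at 6.64 FPKM in KOa, 4.76 FPKM in KOb and 26.0 FPKM in FFa. Erythroid markers dominated each group, with a summed level over 13 genes of 963442 FPKM in KOa, 280681 FPKM in KOb and 615188 FPKM in FFa. Globin genes alone held 76.3% of all FPKM in KOa, 53.3% in KOb and 64.6% in FFa. Most of this was 1 globin entry, Beta-s, with 715226 FPKM in KOa, 247300 FPKM in KOb and 565663 FPKM in FFa. The authors' deposited table did not call Beta-s in KOa over FFa (q = 0.922), KOb over FFa (q = 0.551) or KOb over KOa (q = 0.456). The summed FPKM of all genes was 1275908 in KOa, 659009 in KOb and 1239023 in FFa, so that scaling each group to a common sum shifted every log2 ratio by -0.04 for KOa over FFa, 0.91 for KOb over FFa and 0.95 for KOb over KOa. A common sum over genes other than globins shifted them by 0.54 for KOa over FFa, 0.51 for KOb over FFa and -0.03 for KOb over KOa. The number of members above or below the median of all genes does not depend on such a shift, whereas the sign of a log2 ratio can.

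Promoter sequences from RefSeq (GRCm38.p6, from 250 bases before to 50 bases after each listed start) matched 62 of the 84 members. A run of 8 or more C or T on the transcribed gene's own strand, between 20 bases before and 50 bases after the start, was present in 77.4% of the members, against 28.5% of all 27025 genes with a listed promoter and 25.8% of the other genes that reached 50 FPKM in any group. It stood in 11 of 14 members with a promoter that were lower in KOa than in FFa, in 3 of 4 that were higher and in 34 of 44 that did not pass the test. The letters CGGAAG, the core bound by ETS-family factors, were found on either strand in 66.1% of members, against 18.8% of all genes and 39.8% of the other genes of at least 50 FPKM. The GC box GGGCGG was present in 62.9% of members and 38.2% of all genes, but in 66.3% of the other genes of at least 50 FPKM. AAGATGGC, the letters of a YY1 site, was found in 9.68% of members, 3.19% of all genes and 5.33% of the other genes of at least 50 FPKM. TATAAA was found in 11.3% of members and 15.7% of all genes, but in 11.4% of the other genes of at least 50 FPKM. The searches allowed matches of different motifs to overlap.

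The following 30-base windows show the longest pyrimidine run (capitals) found near the listed start of members whose levels are described in the results, on the strand of the gene and 5' to 3'. Rpl15 (chr14:18270971-18271000, minus strand), Rps23 (chr13:90923142-90923171, plus strand), Rplp2 (chr7:141447636-141447665, plus strand) and Rpl28 (chr7:4792952-4792981, plus strand) were lower in KOa than in FFa. Rpl11 (chr4:136053361-136053390, minus strand) was higher in KOa than in FFa, and Rpl5 (chr5:107900498-107900527, plus strand) and Rpl14 (chr9:120571499-120571528, plus strand) were higher in KOb than in FFa.
Rpl15: tgggagaaagCCTTCTTCCTTTCCTCTggc
Rps23: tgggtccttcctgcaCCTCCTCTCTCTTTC
Rplp2: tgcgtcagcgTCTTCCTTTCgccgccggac
Rpl28: gcctctcgtgTCTCTCTTTCCgtctccggc
Rpl11: gggccggaagTCTCCCTCTCTCTTCCTgtt
Rpl5: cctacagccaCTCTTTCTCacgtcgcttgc
Rpl14: gcagggcgggCCCTCTCTCTTCTCgctgag
The run reached 17 bases in Rpl15 and in Rpl11, which moved in opposite directions in KOa, and it was shortest of these in Rpl5, at 9 bases. Counting the listed start as 1 and the base before it as -1, the run began at -4 in Rpl15, -5 in Rplp2, -3 in Rpl28 and -8 in Rpl14, so that it spans the start in these. It began at 14 in Rpl11 and 36 in Rps23, inside the transcribed part, and at -20 in Rpl5, where all of it lies before the start. These runs are thus not terminal tracts of the listed transcript. For Rpl11 this depends on the start taken, as the authors' deposited locus starts at chr4:136053371 on the minus strand, inside the run. No such run was found in the window of Rps28, Rpsa, Rps16 or Rplp0. The 250 bases before the start of Rpl15 (chr14:18270987-18271236, minus strand) and of Rpl5 (chr5:107900278-107900527, plus strand) are shown as the members with the widest called gap between KOb and KOa and the largest called rise in KOb over FFa. Capitals mark CGGAAG and GGGCGG on either strand, with 3 matches before Rpl15 and 0 before Rpl5.
Rpl15: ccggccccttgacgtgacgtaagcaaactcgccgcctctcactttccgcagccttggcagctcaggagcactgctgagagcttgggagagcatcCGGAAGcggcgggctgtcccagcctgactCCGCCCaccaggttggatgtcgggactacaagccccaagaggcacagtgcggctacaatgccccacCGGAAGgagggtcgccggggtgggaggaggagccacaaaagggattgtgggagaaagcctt
Rpl5: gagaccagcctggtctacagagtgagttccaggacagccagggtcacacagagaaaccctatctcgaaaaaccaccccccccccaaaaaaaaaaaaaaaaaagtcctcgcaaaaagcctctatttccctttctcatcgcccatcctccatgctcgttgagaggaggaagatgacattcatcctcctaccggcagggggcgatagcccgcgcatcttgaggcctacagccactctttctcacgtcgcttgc

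The members were among the most abundant mRNAs of all 3 groups. Their median level was 243 FPKM in KOa, 303 FPKM in KOb and 279 FPKM in FFa, and 25 of them in KOa, 31 in KOb and 20 in FFa were among the 100 genes of highest FPKM. Together they summed to 30762 FPKM in KOa, 34716 FPKM in KOb and 36561 FPKM in FFa. As a share of the FPKM of all genes this was 2.41% in KOa, 5.27% in KOb and 2.95% in FFa, and with globin genes left out of the total it was 10.2% in KOa, 11.3% in KOb and 8.34% in FFa. KOa thus had the lowest sum and the lowest share of all FPKM, but a share above FFa once globin genes were left out. In pooled cells, fewer cells of a type and less RNA per cell cannot be told apart.

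Listed levels ranged over several orders of magnitude although most of the proteins are used in near-equal numbers. Values below 1 FPKM came only from Rpl10l, Rpl3l, Rps4y2 and Rps27, which was split over entries. The part of sequence shared between genes in these level differences was not tested. Rpl41, the shortest protein of the large subunit, had the highest mean level, with 1845 FPKM in KOa, 1241 FPKM in KOb and 2041 FPKM in FFa. Rps21, a small-subunit protein, followed with 1493 FPKM in KOa, 1476 FPKM in KOb and 1895 FPKM in FFa. Rpl35, which lies at the exit of the peptide tunnel, stood at 1645 FPKM in KOa, 1526 FPKM in KOb and 1554 FPKM in FFa. Rpl28 and Rpl39 completed the 5 most abundant members, with means over the groups of 1268 and 1240 FPKM, and both stood lowest in KOa. Below 1 FPKM in each group were Rpl10l and Rpl3l, known as the testis copy of Rpl10 and the muscle copy of Rpl3, and Rps4y2. A further 76 members had at least 20 FPKM in each group. KOa was the lowest of the 3 groups for 52 members and KOb the highest for 42.

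**Figure D1:**
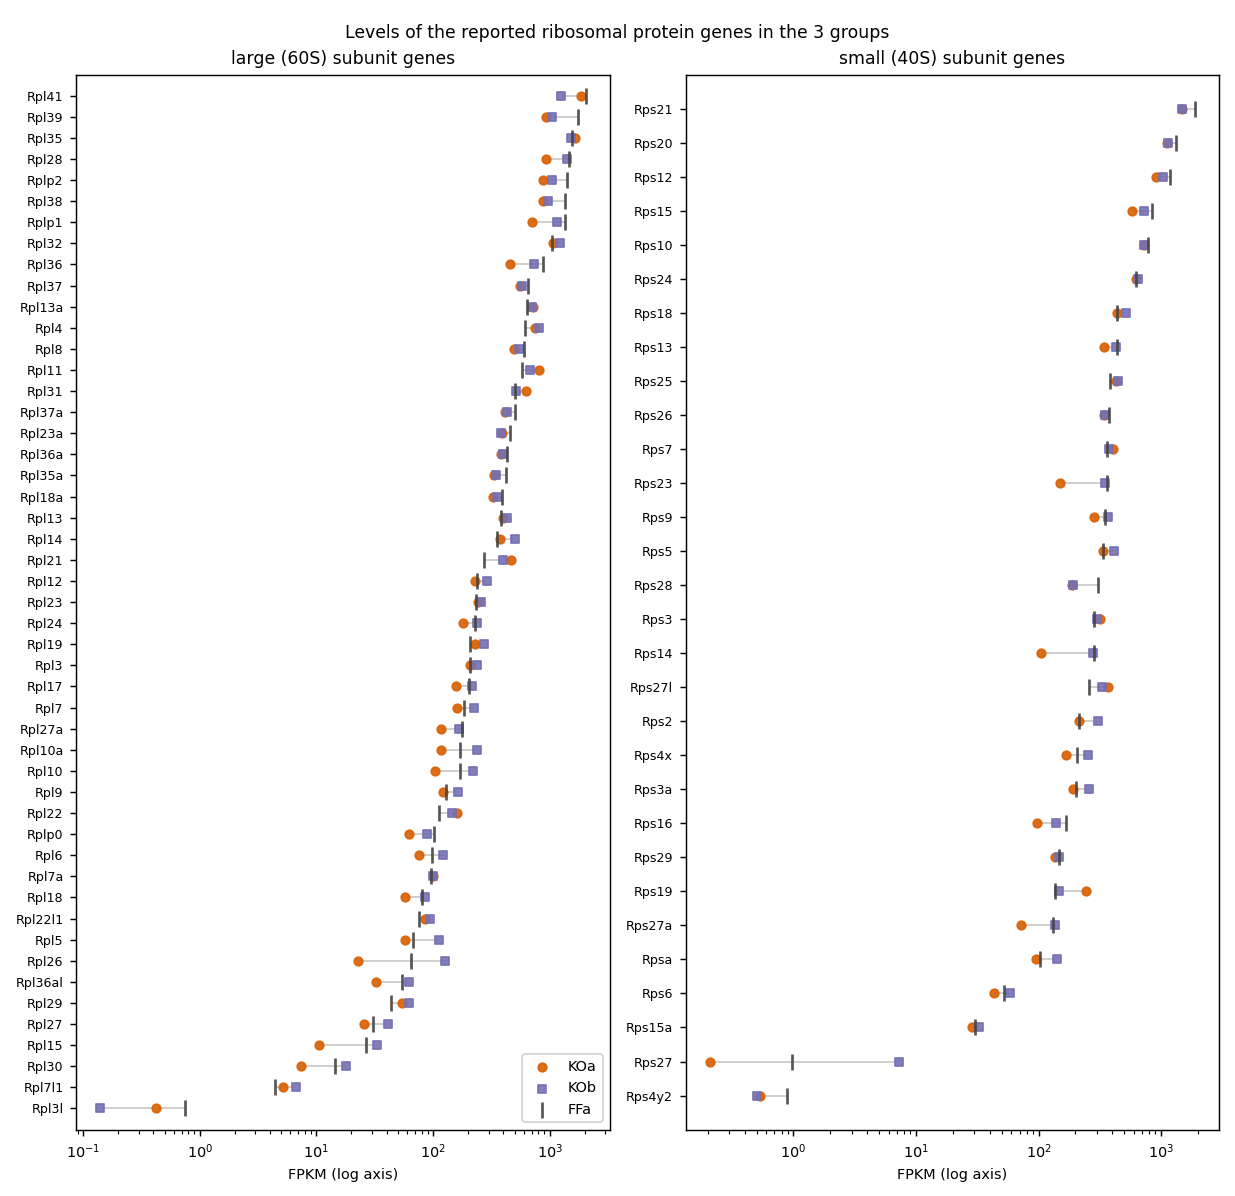
FPKM (log axis) of each reported ribosomal protein gene listed above 0 in all 3 groups, with large-subunit genes at left and small-subunit genes at right, sorted by FFa. Orange circles are KOa, purple squares KOb and grey bars FFa, each 1 deposited group value without error; for most members the 3 groups lie close together, and Rps14 (104 FPKM in KOa, 276 FPKM in KOb and 283 FPKM in FFa), Rpl15 and Rps23 have KOa far to the left of both other groups.

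The comparison of KOa with FFa sets mutant against control cells of the same sort gate. In the authors' deposited table, 19 members were lower in KOa and 5 were higher at a q below 0.05, and 59 did not pass the test. Rpl10l had no test. Each fold change is the deposited log2 ratio of FPKM, and the error after ± is a standard error, obtained by dividing the size of that ratio by the size of the authors' deposited statistic. The 19 lower members are 22.9% of those tested, against 14.1% lower among 10761 genes tested, and the 5 higher members are 6.02% against 7.99%. Among genes that reached 50 FPKM in KOa or FFa, the members' shares were 24.3% lower and 6.76% higher, against 20.2% lower and 13.3% higher over the 822 such genes tested. The share lower was thus above that of all genes but close to that of abundant genes. Reading the deposited statistic as a standard normal left 12 members lower and 2 higher, against 5.0% lower and 2.54% higher over all genes. The members' median log2 ratio was -0.23, against -0.08 for all tested genes and -0.04 for other genes of at least 50 FPKM in both groups, and it became 0.31 when the groups were scaled to a common sum without globin genes.

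Rps14, Rpl15 and Rps23 had the largest called falls in KOa. Rps14, which helps assemble the small subunit and whose human ortholog is lost in a form of myelodysplastic syndrome with anemia, had 104 FPKM in KOa, 276 FPKM in KOb and 283 FPKM in FFa (chr18:60774596-60778546). KOa held 36.8% of the FFa level while KOb and FFa were nearly level, and the authors' deposited table gave a log2 ratio of -1.44 ± 0.21 for KOa over FFa (q = 0.000619, the smallest q the table reached). Rpl15, a large-subunit protein, had 10.6 FPKM in KOa, 33.2 FPKM in KOb and 26.7 FPKM in FFa, with a deposited log2 ratio of -1.34 ± 0.28 for KOa over FFa in the authors' deposited table (q = 0.000619). Rps23, which lies at the decoding centre of the ribosome, had 149 FPKM in KOa, 349 FPKM in KOb and 361 FPKM in FFa, and its deposited log2 ratio for KOa over FFa was -1.28 ± 0.20 in the authors' deposited table (q = 0.000619). In each of these genes KOa lay far below both other groups. KOb over FFa was not called for any of them, at -0.04 ± 0.20 for Rps14, 0.31 ± 0.27 for Rpl15 and -0.05 ± 0.19 for Rps23 in the authors' deposited table.

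The 3 proteins of the ribosomal stalk, which recruits elongation factors to the large subunit, were all lower in KOa than in FFa in the authors' deposited table. Rplp0, the base of the stalk, had 62.6 FPKM in KOa, 89.3 FPKM in KOb and 103 FPKM in FFa (log2 ratio of KOa over FFa -0.72 ± 0.26, deposited q = 0.000619). Rplp1 had 704 FPKM in KOa, 1160 FPKM in KOb and 1350 FPKM in FFa (log2 ratio -0.94 ± 0.18, deposited q = 0.000619). Rplp2 had 883 FPKM in KOa, 1054 FPKM in KOb and 1412 FPKM in FFa (log2 ratio -0.68 ± 0.17, deposited q = 0.000619). All of them had KOb between KOa and FFa, and none was called in KOb over FFa, with Rplp2 closest at -0.42 ± 0.17 (q = 0.0591 in the authors' deposited table). The standard normal reading ended the KOa call of Rplp0 (q = 0.0683) and left those of Rplp1 and Rplp2. With the common sum that leaves out globin genes, the KOa over FFa ratios shrank to -0.18 for Rplp0, -0.40 for Rplp1 and -0.14 for Rplp2.

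Of the 49 large-subunit members tested, 13 were lower and 3 higher in KOa, with a median log2 ratio of -0.24. Of the 33 small-subunit members, 6 were lower and 2 higher, with a median of -0.22. Rpl36 had 461 FPKM in KOa, 735 FPKM in KOb and 877 FPKM in FFa, a log2 ratio of -0.93 ± 0.16 for KOa over FFa (q = 0.000619) in the authors' deposited table. Rps27a, whose precursor is a fusion of ubiquitin and the small-subunit protein, had 72.0 FPKM in KOa, 136 FPKM in KOb and 131 FPKM in FFa, a log2 ratio of -0.86 ± 0.22 (q = 0.000619) in the authors' deposited table. In both of these KOa was the lowest group. Other lower members were Rpl10, Rpl10a, Rpl18, Rpl27a, Rpl28, Rpl36al, Rpl38, Rpl39, Rps16 and Rps28, with log2 ratios from -0.92 (Rpl39) to -0.48 (Rpl18) in the authors' deposited table. With the common sum that leaves out globin genes, Rpl10a and Rpl18 turned to 0.01 and 0.05. The other 17 lower members stayed below 0, some only just, such as Rpl27a at -0.06 and Rpl38 at -0.09. Rps14, Rpl15 and Rps23 kept the largest falls, at -0.90, -0.80 and -0.74.

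The 5 members higher in KOa were Rps19, Rpl21, Rps27l, Rpl22 and Rpl11. Rps19, needed to mature the small subunit and the gene most often mutated in Diamond-Blackfan anemia in humans, had 245 FPKM in KOa, 146 FPKM in KOb and 136 FPKM in FFa (chr7:24884714-24889802). KOa stood apart from both other groups, with a log2 ratio over FFa of 0.85 ± 0.20 (q = 0.000619) in the authors' deposited table. Rpl21, a large-subunit protein, had 468 FPKM in KOa, 401 FPKM in KOb and 274 FPKM in FFa. It was the member called higher in both mutant groups, with log2 ratios over FFa of 0.77 ± 0.29 in KOa (q = 0.000619) and 0.55 ± 0.29 in KOb (q = 0.0213) in the authors' deposited table. Rpl11, which with Rpl5 and the 5S rRNA can bind the p53 inhibitor MDM2, had 812 FPKM in KOa, 681 FPKM in KOb and 575 FPKM in FFa, with 0.50 ± 0.20 for KOa over FFa (q = 0.0248) in the authors' deposited table. For Rpl21 and Rpl11 the order was KOa, KOb, FFa from high to low. The standard normal reading ended the calls of Rpl21 (q = 0.102 in KOa and 0.34 in KOb), Rpl11 (0.136 in KOa) and Rpl22 (0.351 in KOa), and left those of Rps19 and Rps27l.

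The comparison of KOb with FFa sets the more deleted cells, sorted without TER119, against the control, so that deletion and gate cannot be told apart. At a q below 0.05 in the authors' deposited table, 8 members were higher and 4 lower in KOb, and 71 did not pass. The shares were 9.64% higher and 4.82% lower, against 12.8% higher and 15.2% lower among 10584 genes tested. Members that reached 50 FPKM in KOb or FFa were 9.46% higher and 5.41% lower, against 8.94% higher and 33.7% lower over the 805 such genes tested. The share of members called higher was thus near that of abundant genes, and the share called lower was below it. Reading the statistic as a standard normal, 0 members were higher and 3 lower, against 3.64% higher and 5.94% lower over all genes, and 1 of the 8 higher members stayed at a q below 0.01. The members' median log2 ratio was 0.10, against -0.01 for all tested genes and -0.30 for other genes of at least 50 FPKM in both groups, and it was 1.01 with a common sum of all genes and 0.61 without globin genes.

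Rpl5, the partner of Rpl11 and the 5S rRNA, had the largest called rise in KOb over FFa. It had 57.9 FPKM in KOa, 112 FPKM in KOb and 67.8 FPKM in FFa, and its log2 ratio for KOb over FFa was 0.73 ± 0.28 (q = 0.000619) in the authors' deposited table. KOb stood above both other groups, and KOa over FFa was not called (-0.23 ± 0.29, q = 0.396 in the authors' deposited table). The listed levels of Rpl5 and Rpl11, which act as one complex, had different group orders, and this difference was not tested. Rpl11 was called neither in KOb over FFa (q = 0.332) nor in KOb over KOa (q = 0.311) in the authors' deposited table. The standard normal reading ended the call of Rpl5 in KOb over FFa (q = 0.113). Rpl10a, a large-subunit protein near the exit site for tRNA, had 117 FPKM in KOa, 240 FPKM in KOb and 169 FPKM in FFa. It was the member called in opposite directions against FFa in the authors' deposited table, at -0.53 ± 0.23 in KOa (q = 0.0138) and 0.50 ± 0.23 in KOb (q = 0.0209). The standard normal reading ended both calls of Rpl10a (q = 0.185 in KOa and 0.215 in KOb). With the common sum that leaves out globin genes, its KOa over FFa ratio was 0.01. The remaining higher members in KOb were Rpl7l1, Rpl21, Rpl14, Rpl29, Rps2 and Rpsa, with log2 ratios from 0.46 (Rpsa) to 0.58 (Rpl7l1) in the authors' deposited table. Rps2 lies at the entry of the mRNA channel, and Rpsa, the laminin receptor homolog, is needed to mature the small subunit.

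The 4 members lower in KOb than in FFa were small proteins. Rpl39, which lines the peptide exit tunnel, had 923 FPKM in KOa, 1048 FPKM in KOb and 1750 FPKM in FFa, with -0.92 ± 0.28 for KOa and -0.74 ± 0.28 for KOb over FFa (q = 0.000619 for each in the authors' deposited table). Rps28, which lies near the mRNA exit, had 189 FPKM in KOa, 191 FPKM in KOb and 308 FPKM in FFa, with -0.70 ± 0.13 for KOa (q = 0.00248) and -0.69 ± 0.13 for KOb (q = 0.00443) over FFa in the authors' deposited table. Rpl38, known in mouse for tail and skeletal patterning, had 884 FPKM in KOa, 964 FPKM in KOb and 1361 FPKM in FFa, with -0.62 ± 0.14 for KOa (q = 0.00548) and -0.50 ± 0.14 for KOb (q = 0.0311) over FFa in the authors' deposited table. In these genes both mutant groups lay near each other and below FFa. Rpl41 was lower in KOb against both other groups, with -0.15 ± 0.18 for KOa (q = 0.636) and -0.72 ± 0.18 for KOb (q = 0.00405) over FFa in the authors' deposited table. A common sum over all genes adds 0.91 to each KOb ratio, more than the size of any of these 4 falls, and without globin genes Rpl38 stood at 0.01. The standard normal reading ended the KOb call of Rpl39 (q = 0.0975).

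**Figure D2:**
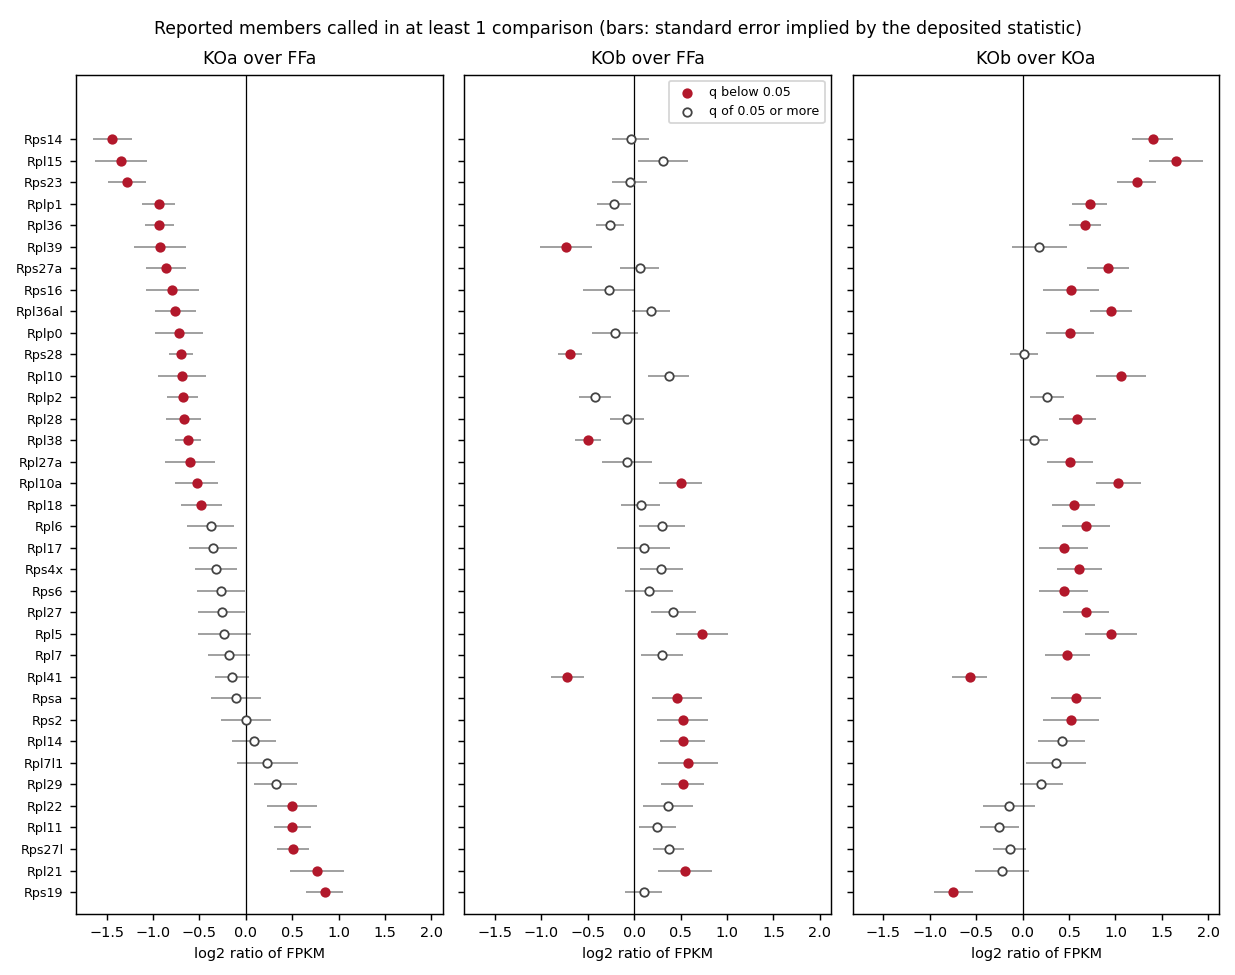
Deposited log2 ratios of the reported members called in at least 1 comparison, sorted by KOa over FFa, with bars for the implied standard error. Filled points passed a q below 0.05 in the authors' deposited table. Rps14, Rpl15 and Rps23 (-1.44, -1.34 and -1.28) lie far left in KOa over FFa and were not called in KOb over FFa (-0.04, 0.31 and -0.05). The comparisons share groups.

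KOb and KOa, the mutant populations, differ in both deletion and gate. The authors' deposited table called 26 members higher and 2 lower in KOb than in KOa, and 55 did not pass. The members higher are 31.3% of those tested, against 10.0% of 10468 genes, and those lower are 2.41% against 6.19%. Among genes that reached 50 FPKM in KOb or KOa, 32.4% of members were higher and 2.7% lower, against 9.0% higher and 25.7% lower over the 789 such genes. Under a standard normal reading of the statistic, 11 members were higher and 2 lower, against 1.92% higher and 0.796% lower over all genes. The members' median log2 ratio was 0.26, against 0.05 for all tested genes and -0.24 for other genes of at least 50 FPKM in both groups, and it was 1.21 with a common sum of all genes. A ratio above 0 was seen in 66 members and one below 0 in 17. The medians were 0.22 for the large subunit and 0.28 for the small subunit.

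The widest called gaps were in genes that were low in KOa. The deposited log2 ratios of KOb over KOa were 1.65 ± 0.29 for Rpl15, 1.40 ± 0.22 for Rps14 and 1.23 ± 0.21 for Rps23 (q = 0.000619 for each in the authors' deposited table). Rpl10, which completes the large subunit late in its assembly, had 105 FPKM in KOa, 219 FPKM in KOb and 169 FPKM in FFa, with 1.06 ± 0.27 for KOb over KOa (q = 0.000619 in the authors' deposited table). Rpl10a, Rpl36al, Rpl5 and Rps27a followed with 1.03 ± 0.24, 0.95 ± 0.23, 0.95 ± 0.28 and 0.92 ± 0.23 (q = 0.000619 for each in the authors' deposited table). Both large-subunit and small-subunit genes were among these 8. A further 8 members were called between the mutant groups but in neither against FFa, among them Rpl6, Rpl7, Rpl17, Rpl27, Rps4x and Rps6. The standard normal reading ended all of these calls, with q values from 0.0842 (Rpl27) to 0.435 (Rpl17 and Rps6). Rps6, the target of S6 kinase, had 43.4 FPKM in KOa, 58.7 FPKM in KOb and 52.4 FPKM in FFa, with 0.44 ± 0.26 for KOb over KOa (q = 0.0482 in the authors' deposited table). Its FFa level lay between the mutant levels. The 2 lower members were Rps19, at -0.75 ± 0.21 (q = 0.000619), and Rpl41, at -0.57 ± 0.19 (q = 0.00901), in the authors' deposited table, and a common sum of all genes adds 0.95, more than the size of either. The 3 comparisons share groups, so a group that stands apart moves 2 of them together.

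**Figure D3:**
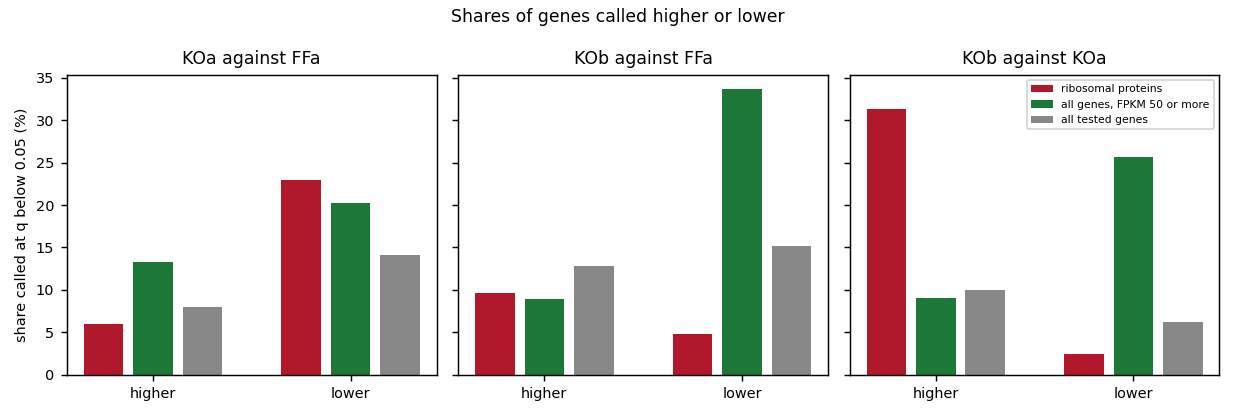
Shares (%) of tested ribosomal protein genes, of all tested genes that reached 50 FPKM in either group compared, and of all tested genes, that were called higher or lower at a q below 0.05 in the authors' deposited table, in each comparison. For KOb against KOa 31.3% of the members were higher, against 9.0% of abundant genes and 10.0% of all genes; the calls follow the authors' scaling, and under a common sum without globin genes the members' median in KOa over FFa turned to 0.31.

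**Figure D4:**
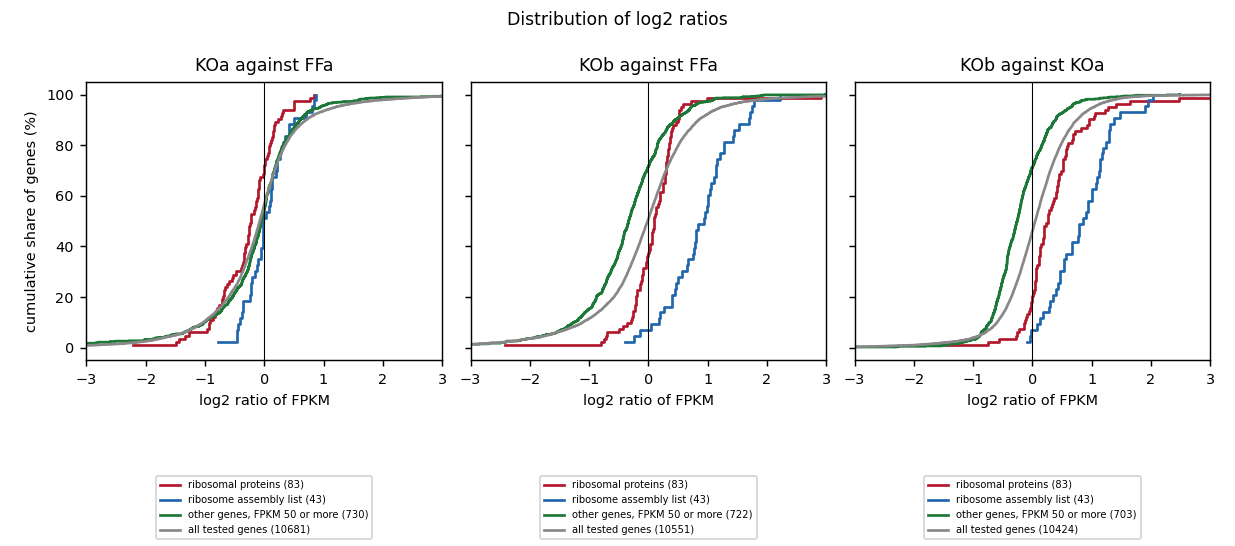
Cumulative share of genes (%) by deposited log2 ratio, for the tested ribosomal protein genes (red), the ribosome assembly list (blue), other genes that reached 50 FPKM in either group compared (green) and all tested genes (grey), drawn between -3 and 3. Red lies to the right of green in KOb against FFa (members' median 0.10) and in KOb against KOa (members' median 0.26), and the assembly list lies further right in both; rescaling moves all curves of a panel by the same amount.

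Paralogs of the same protein were read separately, as far as their sequences allow. Rpl22, a large-subunit protein known for its role in T-cell development, had 161 FPKM in KOa, 145 FPKM in KOb and 113 FPKM in FFa, with 0.50 ± 0.27 for KOa over FFa (q = 0.0228 in the authors' deposited table). Its paralog Rpl22l1, which Rpl22 represses in mouse, had 85.6 FPKM in KOa, 94.3 FPKM in KOb and 76.3 FPKM in FFa, and no comparison was called. Both were lowest in FFa. Rps27l, a p53 target gene, had 366 FPKM in KOa, 332 FPKM in KOb and 257 FPKM in FFa, with 0.51 ± 0.17 for KOa over FFa (q = 0.0188) and 0.37 ± 0.17 for KOb over FFa (q = 0.105) in the authors' deposited table. Rps27 itself was split in the table, with 0.208 FPKM in KOa, 7.28 FPKM in KOb and 0.966 FPKM in FFa in its own entry and 186 FPKM in KOa, 278 FPKM in KOb and 485 FPKM in FFa in an entry joined with Gm9846 that had no test. Its own entry therefore says little about its level. Rpl36al had 32.2 FPKM in KOa, 62 FPKM in KOb and 54.6 FPKM in FFa, with -0.76 ± 0.22 for KOa over FFa (q = 0.00289 in the authors' deposited table). Rpl36a had 386 FPKM in KOa, 402 FPKM in KOb and 432 FPKM in FFa and was not called, at -0.16 ± 0.18 for KOa over FFa in the authors' deposited table. The test of the difference between paralogs was not made. Rpl3 stood at 208 FPKM in KOa, 238 FPKM in KOb and 208 FPKM in FFa, while its muscle copy Rpl3l stayed below 1 FPKM. Rpl7 had 162 FPKM in KOa, 226 FPKM in KOb and 184 FPKM in FFa, and Rpl7l1, its low copy, had 5.20 FPKM in KOa, 6.66 FPKM in KOb and 4.44 FPKM in FFa.

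Rpl34, a large-subunit gene, is not a member because it has no entry of its own. The entry that joins it with Rpl34-ps1 stood at 186 FPKM in KOa, 5.15 FPKM in KOb and 3.35 FPKM in FFa, while the entry of Rpl34-ps1 alone stood at 652 FPKM in KOa, 758 FPKM in KOb and 980 FPKM in FFa. The joined entry was not called, with a log2 ratio of 5.79 ± 2.88 for KOa over FFa (q = 0.177) and -5.17 ± 2.49 for KOb over KOa (q = 0.116) in the authors' deposited table. Rpl26 and Rpl30 had wide errors too, with a log2 ratio for KOa over FFa of -1.49 ± 1.71 and -0.97 ± 1.59 in the authors' deposited table, so differences of the size seen in Rps14 could not be shown in them.

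Many ribosomal protein genes have processed copies elsewhere in the genome. In the GENCODE vM21 transcripts 83 members matched, and 80 of them share at least one 50-base stretch with another annotated gene. Stretches and lengths were taken from 1 protein-coding transcript per gene, the one with the lowest number in its name. These ran from 345 to 3706 bases (Rps20), and other transcripts of a gene can have other lengths and shares. The median member had 50.7% of its stretches to itself, 41 members had under 50%, and only 3 shared none. Rpl10 had 7.87% to itself, Rpl15 32.1%, Rps23 51.6%, Rps14 61.9% and Rps19 74.7%, so their levels depend to different degrees on how reads of shared stretches were assigned, and the sources used here do not give how the authors did this. Members with at least 50% to themselves (40 tested) had a median log2 ratio of -0.14 for KOa over FFa, with 4 called higher and 9 lower in the authors' deposited table. Those under 50% (40 tested with an FPKM of at least 1) had a median of -0.25, with 1 higher and 10 lower. For KOb over KOa the members with at least 50% had a median of 0.18, with 9 higher and 2 lower, and those under 50% (41) had a median of 0.41, with 17 higher and 0 lower. The rise in KOb over KOa was thus seen in both classes and had the larger median in the class with more shared sequence. Members with transcripts under 600 bases had a median log2 ratio of -0.31 for KOa over FFa, -0.04 for KOb over FFa and 0.14 for KOb over KOa, and longer members had -0.16 for KOa over FFa, 0.15 for KOb over FFa and 0.36 for KOb over KOa. Other abundant genes with such short transcripts also had the lower medians for KOa over FFa (-0.21 against -0.01 in longer ones) and KOb over FFa (-0.55 against -0.29). For KOb over KOa their medians were nearly equal (-0.26 against -0.25). The part of shared sequence and of transcript length in the results was not tested. Within 30 of the members lie 58 genes of small nucleolar RNAs, which guide the modification of rRNA.

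**Figure D5:**
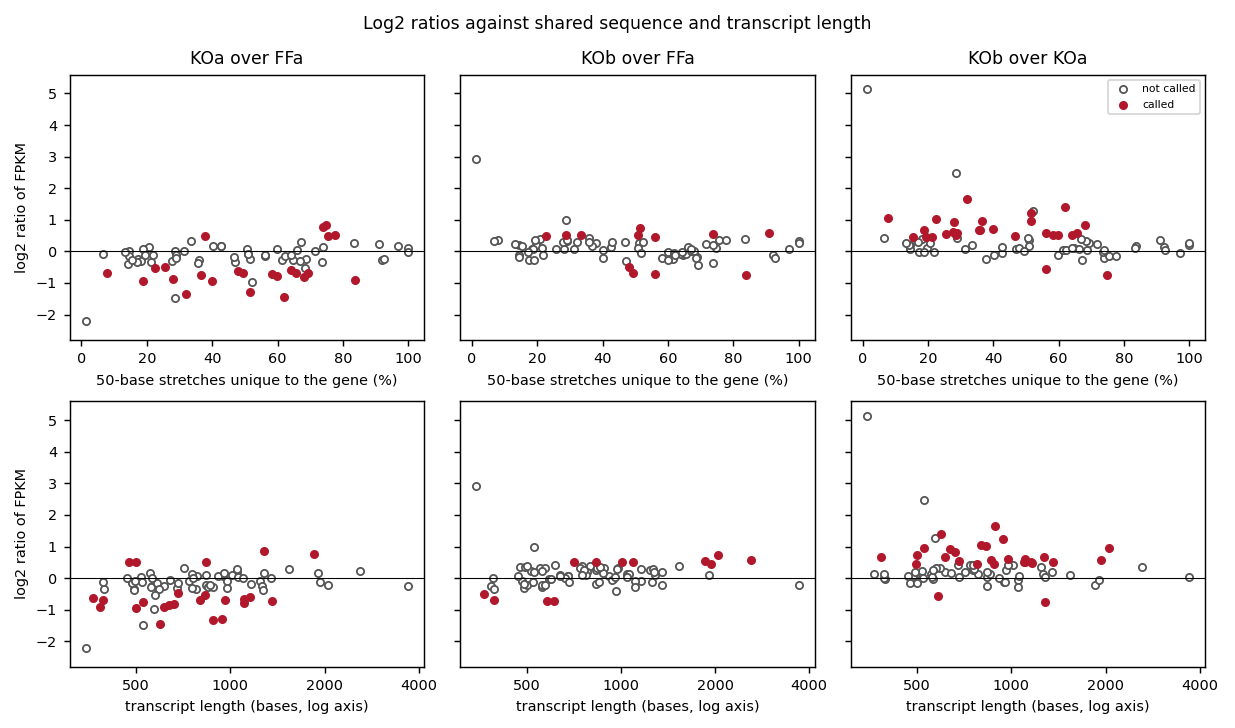
Deposited log2 ratio of each member with a mean FPKM of at least 1, against the share (%) of its 50-base transcript stretches found in no other annotated gene (top) and against transcript length in bases (bottom, log axis), for each comparison. Filled points were called at a q below 0.05 in the authors' deposited table; called members occur at shares from 7.87% (Rpl10) to 91.0% (Rpl7l1), and the point far from 0 at the left of each top panel is Rps27, with 1.35% of its stretches to itself.

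Members whose human orthologs are mutated in Diamond-Blackfan anemia numbered 22. Against FFa, 2 were higher in KOa (Rps19 and Rpl11) and 3 lower (Rpl15, Rps28 and Rpl18), with a median log2 ratio of -0.13, shares near the 7.99% higher and 14.1% lower of all genes tested. In KOb over FFa, 1 was higher (Rpl5) and 1 lower (Rps28), with a median of 0.07, beside 12.8% and 15.2% of all genes. In KOb over KOa, 5 were higher (among them Rpl5, Rpl15, Rpl18 and Rpl27) and 1 lower (Rps19), with a median of 0.09, beside 10.0% and 6.19% of all genes. Most of them, such as Rps24 (624 FPKM in KOa, 651 FPKM in KOb and 621 FPKM in FFa), were not called in any comparison.

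Fau, which encodes a ubiquitin-like protein fused to a ribosomal protein, is 1 of 2 listed fusion genes outside the symbol rule. It had 182 FPKM in KOa, 333 FPKM in KOb and 416 FPKM in FFa, with -1.19 ± 0.29 for KOa over FFa (q = 0.000619) and -0.32 ± 0.28 for KOb over FFa (q = 0.172) in the authors' deposited table. KOa was the lowest group, and KOb over KOa was called as well, at 0.87 ± 0.30 (q = 0.000619 in the authors' deposited table). Of the 2 fusion genes, 2 were lower in KOa over FFa, beside 14.1% of all genes tested. In KOb over FFa 1 was lower, beside 15.2%, and in KOb over KOa 1 was higher, beside 10.0%. The gene lower in KOb over FFa was not Fau, so the list did not share a fall in KOa alone.

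The list of other mRNAs known to carry a terminal oligopyrimidine tract holds elongation and initiation factors, but also genes such as Hnrnpa1, Npm1 and Vim. Npm1 is also counted in the ribosome assembly list. Of 18 tested, 0 were higher and 3 lower in KOa than in FFa (Eef1d, Eif3h and Vim), with a median log2 ratio of -0.06, and the share lower is near the 14.1% of all genes tested. In KOb over FFa 7 were higher and 3 lower, with a median of 0.14, beside 12.8% and 15.2% of all genes. In KOb over KOa 5 were higher and 0 lower, with a median of 0.22, beside 10.0% and 6.19% of all genes. Hnrnpa1 and Npm1 rose most in KOb over FFa, at 1.33 ± 0.46 and 1.27 ± 0.30 in the authors' deposited table (q = 0.000619 for each). The difference between this list and the members was not tested.

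Of 43 genes of ribosome assembly and rRNA synthesis tested, 27 were higher and 0 lower in KOb than in FFa, with a median log2 ratio of 0.94, beside 12.8% higher and 15.2% lower among all genes tested. Against KOa 28 were higher and 0 lower in KOb, with a median of 0.84, beside 10.0% higher and 6.19% lower among all genes. Others did not pass, such as Ubtf, a factor of RNA polymerase I, at -0.40 ± 0.30 for KOb over FFa (q = 0.0775 in the authors' deposited table). In KOa over FFa 1 was higher (Gnl2) and 0 lower, with a median of -0.02. Tsr1, needed to assemble the small subunit, had 0.663 FPKM in KOa, 1.71 FPKM in KOb and 0.369 FPKM in FFa, with 2.22 ± 0.70 for KOb over FFa (q = 0.000619 in the authors' deposited table). Polr1b, a subunit of RNA polymerase I, had 0.426 FPKM in KOa, 1.74 FPKM in KOb and 0.502 FPKM in FFa, and Wdr12, of the complex that processes large-subunit rRNA, had 0.870 FPKM in KOa, 3.36 FPKM in KOb and 1.00 FPKM in FFa. KOb held the highest level of all of these. Under a standard normal reading, 14 stayed called in KOb over FFa and 11 in KOb over KOa. The list's KOb medians remained above 0 under each common sum, as both add to the KOb over FFa ratio and the sum without globin genes takes 0.03 from KOb over KOa.

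A further list held regulators of ribosomal protein synthesis and the p53 response that senses free ribosomal proteins. Of 23 tested, 3 were higher (Rptor, Trp53 and Cdkn1a) and 3 lower (Eif4ebp1, Rps6kb2 and Myc) in KOa than in FFa, beside 7.99% higher and 14.1% lower among all genes. In KOb over FFa 6 were higher and 1 lower, beside 12.8% and 15.2% of all genes, and in KOb over KOa 3 were higher and 2 lower, beside 10.0% and 6.19%. Myc, which drives transcription of ribosomal genes, had 6.20 FPKM in KOa, 13.5 FPKM in KOb and 12.8 FPKM in FFa, with -1.05 ± 0.32 for KOa over FFa (q = 0.000619) and 0.07 ± 0.31 for KOb over FFa (q = 0.824) in the authors' deposited table. Cdkn1a, a p53 target that halts the cell cycle, had 8.38 FPKM in KOa, 7.18 FPKM in KOb and 1.15 FPKM in FFa, with 2.87 ± 0.50 for KOa and 2.65 ± 0.50 for KOb (q = 0.000619 for each in the authors' deposited table). Trp53 had 43.9 FPKM in KOa, 35.5 FPKM in KOb and 15.5 FPKM in FFa. Myc was thus low in KOa alone, while Cdkn1a and Trp53 were high in both mutant groups. Among genes that rescue and recycle stalled ribosomes, Abce1, which splits ribosomes after termination, had 4.31 FPKM in KOa, 9.22 FPKM in KOb and 5.30 FPKM in FFa. It was the 1 gene of that list called in KOb over FFa (0.80 ± 0.31, q = 0.000619 in the authors' deposited table), 0 of 9 tested were called in KOa over FFa, and in KOb over KOa Abce1 was higher and Gtpbp2 lower.

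Markers of other marrow cells moved with the mutant groups. Granulocyte markers (15 genes) summed to 16880 FPKM in KOa, 13724 FPKM in KOb and 49593 FPKM in FFa, with 7 of 15 called lower and 2 higher in KOa and 9 lower and 2 higher in KOb against FFa. B-cell markers (11 genes) summed to 46.2 FPKM in KOa, 37.5 FPKM in KOb and 310 FPKM in FFa, and 11 of 11 were called lower in both mutant groups. Macrophage markers (12 genes) summed to 62.8 FPKM in KOa, 36.5 FPKM in KOb and 97.3 FPKM in FFa. Against FFa, 7 of 12 tested were called lower in KOa and 11 of 11 tested in KOb, with 0 higher in either. T- and NK-cell markers (10 genes) summed to 17.6 FPKM in KOa, 17.0 FPKM in KOb and 22.7 FPKM in FFa. Of 9 tested against FFa, 2 were lower and 1 higher in KOa, and 4 lower and 1 higher in KOb. Megakaryocyte markers (10 genes) summed to 70.5 FPKM in KOa, 56.9 FPKM in KOb and 39.4 FPKM in FFa, and stem-cell markers (9 genes) to 13.5 FPKM in KOa, 17.7 FPKM in KOb and 21.9 FPKM in FFa. In contrast to this sum, 3 of 8 stem-cell markers tested were called higher in KOb than in FFa and 2 lower, and Kit, the stem cell factor receptor, stood at 0.751 FPKM in KOa, 2.36 FPKM in KOb and 0.399 FPKM in FFa, with a log2 ratio of 2.57 for KOb over FFa (q = 0.000619 in the authors' deposited table). No listed marker was at 0 in any group. Between KOb and KOa 4 of 13 erythroid markers were lower and 0 higher in the authors' deposited table. The part of these cells in the ribosomal protein results was not tested.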

How the data were processed

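Per the labels' protocols, column-purified and DNase-treated total RNA was turned into libraries (NuGEN Encore Complete). TopHat2 2.0.8b, Bowtie2 2.1.0 and Cuffdiff 2.1.1 with build mm10 are named in the submitters' processing notes. Not given in the sources used here: annotation, filters, scaling, strand and the handling of shared reads. FPKM values (fragments scaled for transcript length and library size) were deposited, 1 per gene and group. The log2 ratio, the test statistic (a score), the p-value and the q-value are also the authors' deposited values. Locus coordinates were raised by 1 base at the start, as the deposited loci count from 0.

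A call needs a completed test and a q below 0.05 in the authors' deposited table. The deposited q equals a Benjamini-Hochberg adjustment over 31813 tested results of the 3 comparisons together, to within 5.27e-07. The smallest deposited p, 5e-05, gives q = 0.000619 and was reached by 2570 results. Standard errors are the size of the log2 ratio over that of the statistic, and for the members the deposited log2 ratio equals the recomputed one. With no value per library, no SD, depth, interval or model across libraries was computed. Whether the libraries came from separate mice is not in the labels, so the tests may measure technical spread only.

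Members and gene lists were chosen with earlier results of these data known. Named in full are, per comparison, up to 8 called members of largest log2 ratio in each direction, the member called in opposite directions, the 5 of highest mean FPKM, the paralogs, Rps19, Rpl5, Rpl11, up to 3 called genes per list and Trim28. Promoters are from RefSeq and 50-base stretches from GENCODE vM21. Python 3.11.15, pandas 2.3.3 and scipy 1.17.1 were used, and the code was tested on simulated data. Alternatives changed the q, fold or FPKM minimum, the adjustment, the reading of the statistic, the scaling and the members. A few genes are counted in the totals but not reported here by name.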

Additional observations from a re-analysis of the deposited data

Results flagged for a closer look

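The ratios of KOb and KOa to FFa differed for 20 members that were called against FFa in at least one mutant group. The test is the KOb over KOa comparison of the authors' deposited table. With the statistics read as a standard normal, 10 of them kept both this call and a call against FFa. Others, such as Rpl10 (q = 0.00235), kept the KOb over KOa call under that reading but no call against FFa. Among them, the log2 ratios of KOb over KOa were 1.65 for Rpl15, 1.40 for Rps14, 1.23 for Rps23, 1.06 for Rpl10, 1.03 for Rpl10a, 0.95 for Rpl36al, 0.95 for Rpl5 and 0.92 for Rps27a. They were 0.72 for Rplp1, 0.67 for Rpl36, 0.59 for Rpl28, 0.57 for Rpsa, 0.55 for Rpl18, 0.52 for Rps16, 0.52 for Rps2, 0.51 for Rpl27a and 0.51 for Rplp0. Rps19 at -0.75 and Rpl41 at -0.57 were lower in KOb.

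The entry that joins Rpl34 with Rpl34-ps1, outside the symbol rule, was listed at 186 FPKM in KOa, 5.15 FPKM in KOb and 3.35 FPKM in FFa without passing the test.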

How the results depend on the processing

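Reading the deposited statistic as a standard normal gave 2 members higher and 12 lower in KOa over FFa (from 5 and 19), 0 higher in KOb over FFa (from 8) and 11 higher in KOb over KOa (from 26), and the ratios to FFa differed for 10 members (from 20). Of the called members 10 of 24, 9 of 12 and 15 of 28 in the 3 comparisons were lost. For the lists, the calls in KOa over FFa, KOb over FFa and KOb over KOa were then 1, 3 and 2 for other tract mRNAs, 0, 14 and 11 for ribosome assembly, 3, 2 and 1 for regulators, and 3, 1 and 3 for Diamond-Blackfan genes. Quality control genes had 0 in KOb over FFa and 1 in KOb over KOa, and the list that holds Fau 0 in KOb over KOa. A q below 0.01 left 2 higher in KOa, 1 higher in KOb over FFa and 17 higher in KOb over KOa. A 1.5-fold minimum left 2, 1 and 15 of these, and 1 lower in KOb over KOa. Without paralogs and members of mean FPKM under 1, left out together, 3 were higher in KOa. With at least 50% of stretches unique, chosen after seeing the data like the standard normal reading of the differing ratios and the run without Rps19bp1, 9 were lower in KOa, 5 higher and 2 lower in KOb over FFa, and 9 higher in KOb over KOa. These restrictions test or count fewer genes by construction, and for the normal reading the cause was not tested. A common sum over all genes gave medians of 1.01 for KOb over FFa and 1.21 for KOb over KOa. Without globin genes it gave 0.31 for KOa over FFa and 0.61 for KOb over FFa, and Rpl10a and Rpl18 in KOa (0.01 and 0.05) and Rpl38 in KOb over FFa (0.01) reversed, since scaling adds one amount to every gene. Adjustment within a comparison and FPKM minimums of 5 or 50 kept the members' counts within 1.5 times. Leaving out libraries was not run, and no paired analysis was possible because the deposited table holds 1 value per gene and group. The depth behind each level is unknown.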
